A study of Mus musculus with 2 samples.

Results

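Complement components and receptors were followed as 8 genes, C1qa, C1qb, C1qc, C3, Cfb, Cfp, C3ar1 and C5ar1, of the 32285 genes in both count tables. They were taken as a named list and not by a cut on a measured value, though with earlier results of these data known. All 8 were detected in both libraries, and each is described across the 10 coarser and 15 finer cell clusters of the deposited metadata and between the 2 genotypes. The libraries come from colon lamina propria of C57BL/6 mice aged 8 weeks, sorted as live CD45+ cells. One library is labelled E4BP4 transgenic (TG), in mice described as overexpressing E4BP4 in macrophages, and the other wild type (WT). Mice of both genotypes had drunk 2.0% dextran sulfate sodium (DSS), which injures the colon lining, for 7 days and plain water for 7 more, and were killed on day 14. The promoter that drives the transgene and the number of animals behind a library are not given in the labels, and each genotype is 1 library.

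Complement is a set of blood and tissue proteins that tag microbes and dying cells. C1q, built of A, B and C chains, opens the classical pathway when it binds antibody or cell debris. C3 is the central component that all pathways cleave, factor B (Cfb) forms the alternative pathway convertase, and properdin (Cfp) stabilises it. C3ar1 and C5ar1 are the receptors for the small fragments C3a and C5a, which activate and attract myeloid cells. Most circulating complement is made by the liver, whereas C1q is made mainly by macrophages and dendritic cells, and properdin by myeloid cells.

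On the mm10 genome all 8 genes lie on the minus strand. The C1q chains are neighbours on chromosome 4, with C1qb (ENSMUSG00000036905) at chr4:136880129-136886187, C1qc (ENSMUSG00000036896) at chr4:136889804-136893065 and C1qa (ENSMUSG00000036887) at chr4:136895917-136898803. C3 lies at chr17:57203970-57228136, Cfb at chr17:34856374-34862518, Cfp at chrX:20925454-20931555, C3ar1 at chr6:122847138-122856161 and C5ar1 at chr7:16246743-16259540. RefSeq promoters (GRCm38.p6) matched 6 of the 8 genes, and those of C1qb, C1qc and Cfp are shown, each as the 250 bases before the start, 5′ to 3′ on the gene's strand. The first pair serves chains that were both highest in macrophage-like cells, and Cfp differed between libraries in several classes. Capitals mark a Maf word (TGCTGA, 131 to 126 bases before the start) in C1qb at chr4:136886201-136886450, and the reverse complement of a PU.1 word (GAGGAAGT, 195 to 188 bases before the start) in C1qc at chr4:136892915-136893164. The C1qc start in RefSeq lies 151 bases from that of the annotated gene. Cfp, at chrX:20931556-20931805, held none of the 6 words searched and has no capitals.
C1qb: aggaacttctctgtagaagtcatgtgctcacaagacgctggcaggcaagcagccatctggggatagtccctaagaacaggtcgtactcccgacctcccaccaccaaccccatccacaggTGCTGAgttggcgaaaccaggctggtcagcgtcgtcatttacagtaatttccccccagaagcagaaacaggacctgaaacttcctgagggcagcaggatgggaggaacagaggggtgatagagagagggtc
C1qc: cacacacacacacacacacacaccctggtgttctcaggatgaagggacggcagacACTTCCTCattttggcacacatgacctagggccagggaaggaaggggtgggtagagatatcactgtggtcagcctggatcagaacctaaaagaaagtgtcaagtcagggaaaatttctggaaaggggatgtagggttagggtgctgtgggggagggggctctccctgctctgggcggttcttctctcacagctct
Cfp: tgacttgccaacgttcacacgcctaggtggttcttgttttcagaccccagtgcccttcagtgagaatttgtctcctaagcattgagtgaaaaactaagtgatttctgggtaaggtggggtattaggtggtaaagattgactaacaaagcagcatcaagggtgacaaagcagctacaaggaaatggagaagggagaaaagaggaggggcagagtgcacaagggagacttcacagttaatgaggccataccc

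Words were searched on both strands, and the background is the share of 32817 RefSeq promoters of the same length that hold the word. The E4BP4 words TTATGTAA (0.817% of promoters) and TTACGTAA (0.113%) were in none of the 6 windows, nor was the STAT word TTCNNNGAA (7.02%). TGCTGA (16.1%) was found in C1qb, C3, C3ar1 and C5ar1, GAGGAAGT (2.44%) in C1qc alone and the NF-kB word (1.41%) in C3ar1 alone. These are matches of letters and not binding sites, and these words share no letters with each other in these windows.

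The metadata list 7026 TG and 6466 WT cells, with medians of 2428 and 2700 unique molecular identifiers (UMIs, each counted once per captured RNA molecule) per cell. Levels are counts of a gene per 1000000 UMIs (CPM), summed over the cells of a cluster, with exact Poisson 95% intervals, and ratios are TG over WT with exact conditional binomial intervals. These intervals cover counting error only, the spread between animals cannot be given with 1 library per genotype, and no p-value was computed. Cells were clustered on expression, so a level in one cluster against another is a description. A class is called "-like" from marker genes that exclude the 8 genes, and a ratio of at least 1.5-fold either way on at least 20 UMIs is called. A level under 10% of the highest cluster's in either library is named as one that free RNA could give. The libraries share 67 cell barcodes among the metadata cells. Nfil3, which encodes E4BP4, had 73.8 CPM in TG and 84.4 CPM in WT macrophage-like cells, a ratio of 0.874 (0.724 to 1.06). Whether RNA of the transgene is counted under Nfil3 is not given in the sources used here. The deposited counts do not show the label of the TG library at this gene, and every direction below is that of the library labelled transgenic.

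**Figure D1:**
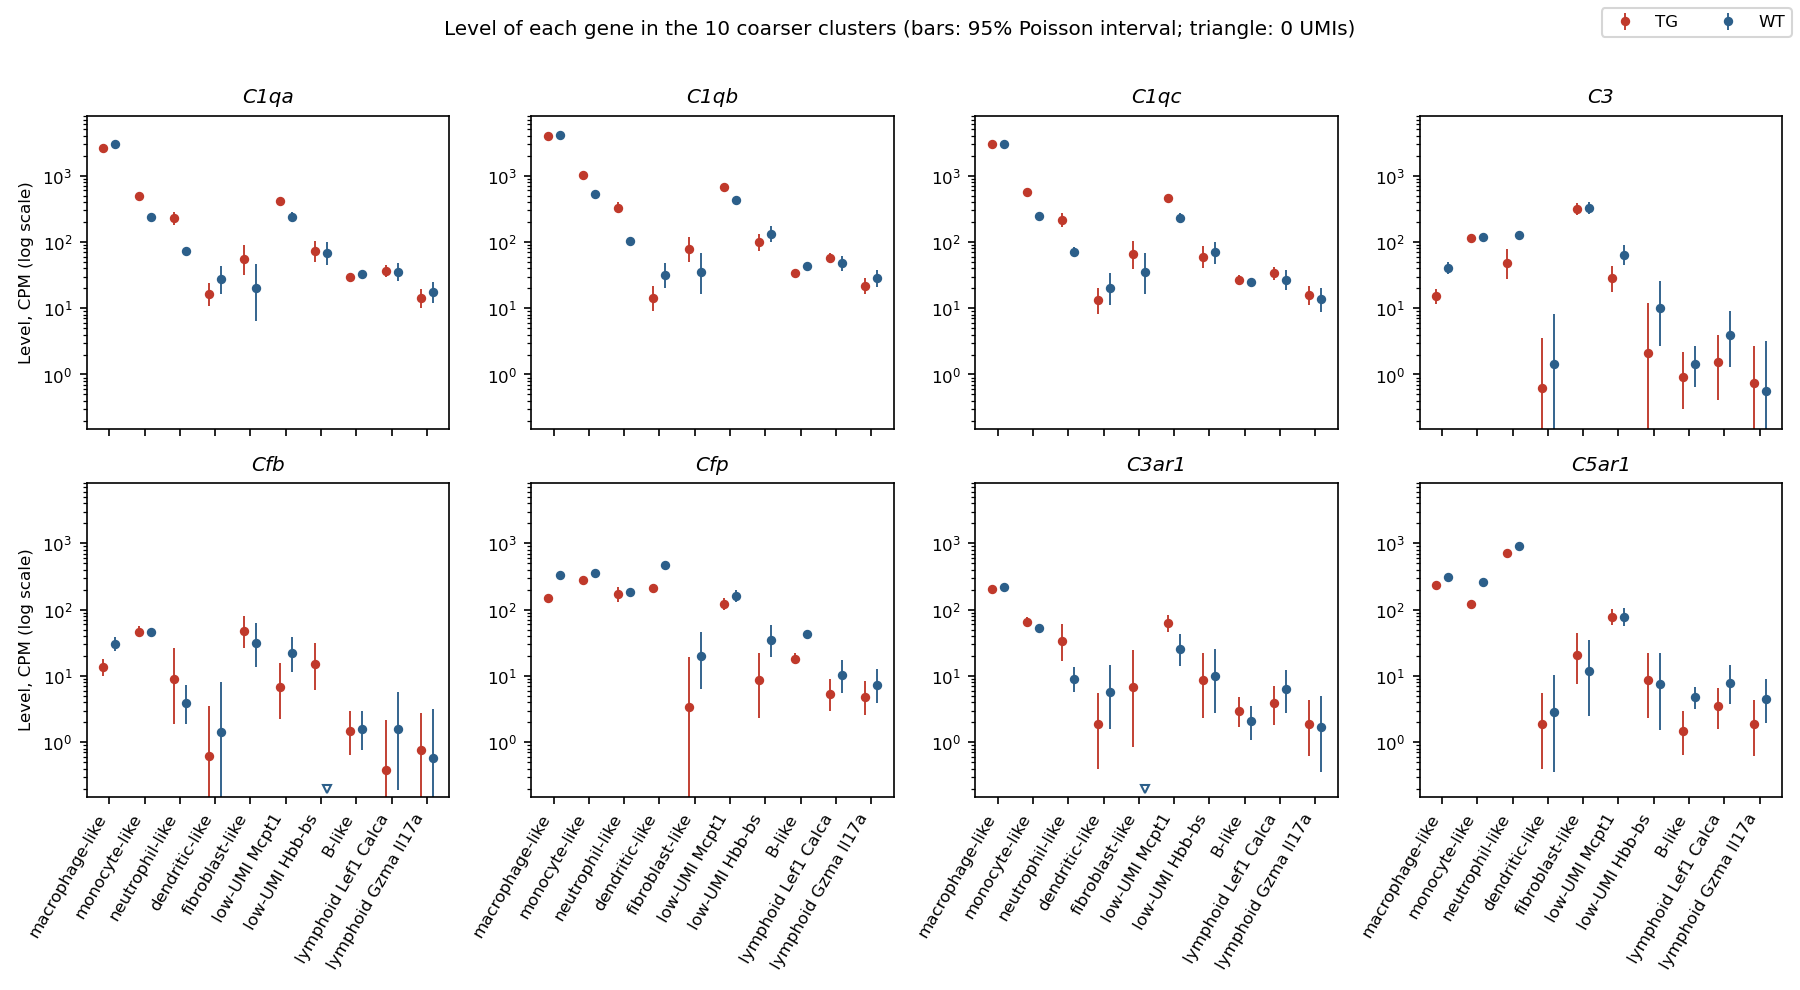
Level of each of the 8 genes in the 10 coarser clusters, in CPM on a log axis, TG (red) left of WT (blue), with 95% Poisson intervals and an open triangle for 0 UMIs. The C1q chains and C3ar1 peak in macrophage-like cells, C5ar1 in neutrophil-like cells (705 CPM in TG, 925 CPM in WT), and C3 in fibroblast-like cells (317 CPM in TG, 326 CPM in WT).

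The C1q chains were transcripts of macrophage-like cells (1106 TG and 664 WT cells), and their level there differed little between libraries. C1qa, the A chain, had 2627 CPM (2575 to 2680) in TG and 3025 CPM (2954 to 3098) in WT macrophage-like cells. C1qb, the B chain, had 3918 CPM (3854 to 3982) in TG and 4159 CPM (4076 to 4244) in WT. C1qc, the C chain, had 3018 CPM (2962 to 3074) in TG and 3001 CPM (2930 to 3073) in WT. The intervals are apart for C1qa and C1qb, which were lower in TG, and overlap for C1qc. The ratios were 0.868 (0.842 to 0.896) for C1qa, 0.942 (0.918 to 0.967) for C1qb and 1.01 (0.976 to 1.04) for C1qc. Summed over the chains, 9562 CPM in TG and 10185 CPM in WT macrophage-like cells gave a ratio of 0.939 (0.923 to 0.955), which becomes 1.11 when the finer clusters of the class are weighted equally. None of the chains was called.

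Nearly every macrophage-like cell carried C1q. At least 1 UMI of a chain was seen in 97.9% of TG and 94.6% of WT macrophage-like cells (medians of 3082 and 3148 UMIs). B-like cells, which should lack the genes, showed it in 18.0% of TG and 20.9% of WT cells (medians of 2234 and 2444 UMIs). After each cell was thinned to 1000 UMIs, the shares were 96.03% in TG and 93.2% in WT macrophage-like cells and 9.22% in TG and 9.33% in WT B-like cells. Thinning left out 72 TG and 63 WT macrophage-like cells and 88 TG and 106 WT B-like cells. The summed level in B-like cells, 90.1 CPM in TG and 100.2 CPM in WT, was 0.942% and 0.984% of that in macrophage-like cells, so it is read as background.

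The chains came in similar proportions in both libraries' macrophage-like cells, and C1qb made up more in some other clusters. In macrophage-like cells C1qb made up 41.0% of C1q UMIs in TG (40.5 to 41.5) and 40.8% in WT (40.2 to 41.5). C1qa made up 27.5% in TG and 29.7% in WT, and C1qc 31.6% in TG and 29.5% in WT. Monocyte-like cells carried a larger C1qb part, 49% in TG (47.5 to 50.5) and 52.3% in WT (50.9 to 53.8). In the finer cluster led by Arg1, Nos2 and Saa3 the C1qb part was 43.1% in TG (36.4 to 49.9) and 57.8% in WT (53.1 to 62.4). Among C1q-positive cells thinned to 1000 UMIs, all 3 chains were seen in 67.8% of 993 TG and 66.1% of 560 WT macrophage-like cells. In monocyte-like cells the share was 41.1% of 168 TG and 27.8% of 209 WT positive cells, and in B-like cells 2 of 198 TG and 0 of 215 WT positive cells.

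**Figure D2:**
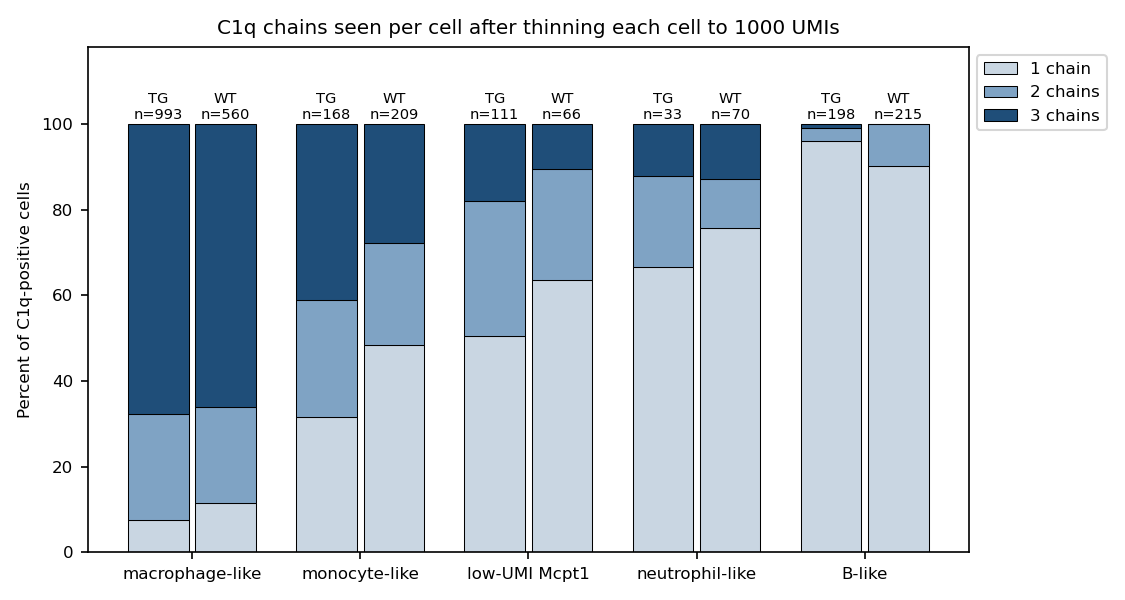
Percent of C1q-positive cells in which 1, 2 or 3 chains were seen after each cell was thinned to 1000 UMIs, TG left of WT within each class, with the number of positive cells above each bar. All 3 chains were seen in 67.8% of TG and 66.1% of WT macrophage-like cells and in 1.01% of TG and 0% of WT B-like cells.

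Monocyte-like cells (437 TG and 814 WT) held more C1q in TG in the deposited coarser and finer clusters, and not after regrouping without the 8 genes. C1qa had 487 CPM in TG and 240 CPM in WT, C1qb 1004 CPM in TG and 533 CPM in WT, and C1qc 558 CPM in TG and 246 CPM in WT. All 3 chains were higher in TG, with ratios of 2.03, 1.89 and 2.27 and 2.01 (1.93 to 2.10) for their sum. The finer monocyte-like cluster gave the same ratio, 2.01, from 3021 CPM in TG and 1506 CPM in WT, and the sum was called in 8 of 11 alternative settings. The WT levels of C1qa and C1qc were 7.93% and 8.19% of those in WT macrophage-like cells, in the range set above as one that free RNA could give. WT B-like cells had 32.9 CPM of C1qa and 24.5 CPM of C1qc. The C1qb part of C1q was 52.3% in WT monocyte-like and 40.8% in WT macrophage-like cells, and the part of free RNA was not tested. A chain was seen in 54.0% of TG and 41.3% of WT monocyte-like cells, and in 38.4% of TG and 25.7% of WT cells after thinning to 1000 UMIs, above the B-like shares in both libraries. When metadata cells were regrouped by their profile without the 8 genes, monocyte-like cells (299 TG and 873 WT) had 1184 CPM of C1q in TG and 1280 CPM in WT, a ratio of 0.925 (0.875 to 0.977). Among the barcodes with too many genes for the metadata, described below, 74 TG and 642 WT monocyte-like barcodes gave 2065 CPM in TG and 2162 CPM in WT, a ratio of 0.955 (0.908 to 1.01). In the deposited class, monocyte marker genes summed to 16435 CPM in TG and 18244 CPM in WT and macrophage markers to 4838 CPM in TG and 4663 CPM in WT, 16 of 16 macrophage markers being detected in each library. The part of these markers in the C1q ratio was not tested.

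C1q was also higher in TG in the neutrophil-like class (167 TG and 648 WT cells), at 772 CPM in TG and 248 CPM in WT, a ratio of 3.11 (2.68 to 3.60). Both levels lie under 10% of the macrophage-like ones, and 56.5% of the TG and 46.3% of the WT UMIs sat in 5 cells. The whole class was shifted, since the median gene with at least 20 UMIs was 1.55-fold higher in TG. Neutrophil markers summed to 108930 CPM in TG and 255803 CPM in WT, and macrophage markers to 2448 CPM in TG and 932 CPM in WT, with 12 of 12 and 16 of 16 markers detected in each library. Their part in the C1q ratio was not tested. After regrouping without the 8 genes, 131 TG and 622 WT neutrophil-like cells had 248.5 CPM of C1q in TG and 173.6 CPM in WT, a ratio of 1.43 (1.07 to 1.89) that was no longer called. The low-UMI cluster led by Mcpt1 had 1559 CPM of C1q in TG and 899 CPM in WT, each chain being called higher. C1qa and C1qc were there at WT levels that free RNA could give. After regrouping the cluster had 1755 CPM of C1q in TG and 1614 CPM in WT. Each chain was also called higher in the finer low-UMI cluster led by Creb5, where 13.5% of 5775 genes were, with C1qb at 1002 CPM in TG and 555 CPM in WT.

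Over all metadata cells C1q had 2118 CPM in TG and 1448 CPM in WT, a ratio of 1.46. With the WT levels of the 10 clusters and the TG shares of UMIs per cluster, the ratio was 1.44, and with the TG levels and WT shares it was 1.16. Macrophage-like cells supplied 83.4% of C1q UMIs in TG and 77.2% in WT. C1q RNA also lay outside the metadata, with 51.6% of the TG library's C1q UMIs and 70.2% of the WT library's. No metadata cell was listed with 2200 genes or more, and 1290 TG and 1718 WT barcodes at or above that number held 43.6% of C1q UMIs in TG and 66.6% in WT. Their C1q level was 2469 CPM in TG and 3173 CPM in WT, so the higher TG level holds for the metadata cells and not for these barcodes. Over all barcodes C1q made up 87441 of 58884332 UMIs in TG and 99528 of 69346746 UMIs in WT. Assigned to the class whose profile without the 8 genes made their counts most likely, 336 TG and 323 WT barcodes of 2200 genes or more were macrophage-like. These held 9606 CPM of C1q in TG and 12847 CPM in WT, a ratio of 0.748 (0.737 to 0.758), with 2835 CPM in TG and 3914 CPM in WT for C1qa. C1q was thus lower in TG in the RNA-rich macrophage-like barcodes by more than in the metadata cells, and none of the chains was called there.

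**Figure D3:**
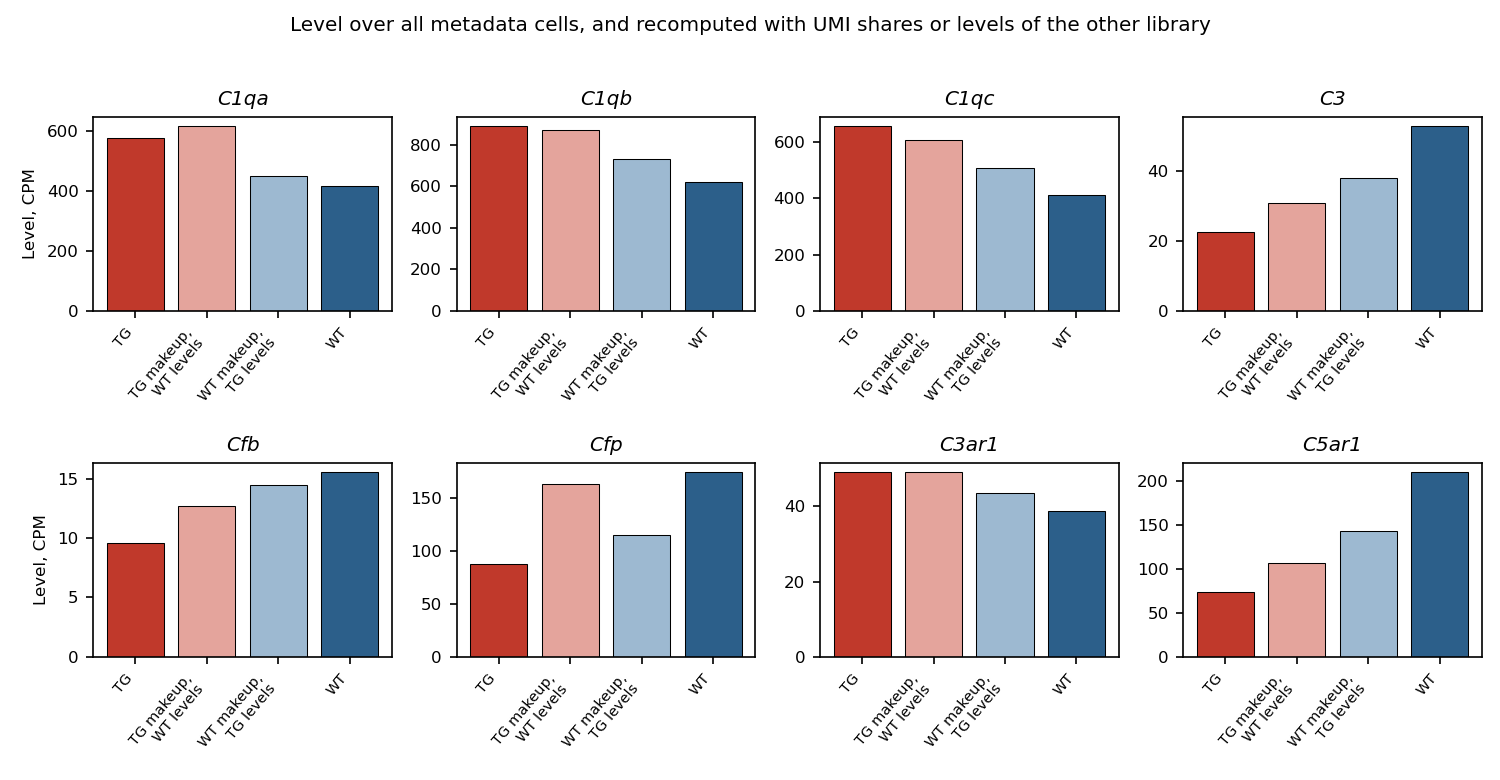
Level of each gene over all metadata cells, in CPM, as measured in TG and WT (outer bars) and recomputed with the UMI shares of 1 library over the 10 clusters and the levels of the other (inner bars). For C1q the TG shares with WT levels come close to the TG value, whereas for Cfp they give 163.5 CPM, against 88.0 CPM in TG and 174.8 CPM in WT.

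Properdin was lower in TG than in WT in macrophage-like, dendritic-like and monocyte-like cells, and at low levels also in B-like and lymphoid cells. Cfp had 147.5 CPM (135.4 to 160.5) in TG and 335 CPM (312 to 360) in WT macrophage-like cells. In dendritic-like cells (282 TG and 132 WT) it had 209 CPM (187 to 232) in TG and 477 CPM (427 to 531) in WT. In monocyte-like cells the level was 279 CPM (257 to 302) in TG and 362 CPM (344 to 380) in WT. The intervals do not overlap in the macrophage-like, dendritic-like or monocyte-like class. The ratios were 0.440 (0.393 to 0.492), 0.437 (0.374 to 0.511) and 0.772 (0.702 to 0.848), the first pair past 1.5-fold and the last short of it. Neutrophil-like cells had 169.5 CPM in TG and 184 CPM in WT, a ratio of 0.919 (0.684 to 1.22) whose interval includes 1, and 0.594 relative to the median gene of that class. The unnamed low-UMI cluster led by Mcpt1 had 121 CPM in TG and 162 CPM in WT, with an interval that also includes 1 (0.551 to 1.02). At levels that free RNA could give, Cfp was also called lower in B-like cells, described below. The same call was made in the lymphoid clusters led by Lef1 and Calca and by Gzma and Il17a, where the intervals of the levels overlap.

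In macrophage-like cells the Cfp difference was also seen in the share of cells. UMIs of Cfp were seen in 30.0% of TG and 48.6% of WT macrophage-like cells, and in 12.3% of TG and 24.6% of WT cells after thinning to 1000 UMIs. The 5 cells with the most UMIs held 6.99% in TG and 7.82% in WT, and the ratio without them was 0.442. In dendritic-like cells Cfp was seen in 45.0% of TG and 57.6% of WT cells, and in 13.2% of TG and 26.4% of WT cells after thinning to 1000 UMIs. There 5 cells held 15.6% of Cfp UMIs in TG and 29.1% in WT, and the ratio without them was 0.505. In B-like cells Cfp was seen in 3.27% of TG and 7.68% of WT cells, at 18.3 CPM in TG and 43.2 CPM in WT. That level was 6.55% of the highest cluster's in TG and 9.06% in WT, in the range that free RNA could give. It lay above that of the lymphoid cluster led by Gzma and Il17a, 4.87 CPM (2.59 to 8.33) in TG and 7.40 CPM (3.94 to 12.65) in WT. The B-like ratio was 0.423 and was called lower in 11 of 11 alternative settings. C5ar1 was also called lower in B-like cells, at 1.48 CPM in TG and 4.75 CPM in WT, a ratio of 0.311. Both C5ar1 levels lie in the range that free RNA could give. Of 10665 genes in the class 5.61% were called lower in TG. Neutrophil markers in B-like cells summed to 29.9 CPM in TG and 517 CPM in WT. How these markers bear on the B-like Cfp and C5ar1 values was not tested. In B-like barcodes of 2200 genes or more Cfp had 43.4 CPM in TG and 86.2 CPM in WT, a ratio of 0.504 (0.359 to 0.699). Among the barcodes of 2200 genes or more the ratio was 0.463 (0.419 to 0.512) in macrophage-like, 0.492 (0.459 to 0.528) in 465 TG and 303 WT dendritic-like and 0.847 (0.747 to 0.957) in monocyte-like barcodes. Neutrophil markers in macrophage-like cells summed to 138 CPM in TG and 590 CPM in WT, T cell markers to 734 CPM in TG and 310 CPM in WT and NK markers to 331 CPM in TG and 61.3 CPM in WT. The NK markers Ncr1 and Eomes were at 0 in WT, and all others of these 3 lists were detected. The part of these markers in the Cfp ratio was not tested.

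C3 marked fibroblast-like, monocyte-like and neutrophil-like cells, and only the last of these differed past 1.5-fold in the coarser classes. Fibroblast-like cells (107 TG and 103 WT), a non-haematopoietic minority in this CD45+ sort, had 317 CPM (256 to 389) in TG and 326 CPM (259 to 404) in WT. Monocyte-like cells had 114.6 CPM (100.7 to 129.7) in TG and 119 CPM (109 to 129) in WT. Both pairs of intervals overlap, with ratios of 0.973 (0.715 to 1.33) and 0.965 (0.827 to 1.12). The monocyte-like ratio was 1.27, with a lower bound of 1.08, after regrouping without the 8 genes and 0.628 (0.474 to 0.817), called lower, in the barcodes of 2200 genes or more. Neutrophil-like cells had 48.4 CPM (27.7 to 78.6) in TG, from 16 UMIs, and 125 CPM (112 to 140) in WT, from 317 UMIs. That ratio was 0.387 (0.219 to 0.638), and 0.250 relative to the median gene of the class. In macrophage-like cells C3 had 15.2 CPM in TG and 40.4 CPM in WT, a ratio of 0.376, of which the TG level lies in the free RNA range. The C3 ratio was 0.631 in macrophage-like cells regrouped without the 8 genes and 0.772, no longer called, in the barcodes of 2200 genes or more.

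In the finer clusters C3 was highest outside fibroblast-like cells in a cluster led by Arg1, Nos2 and Saa3 (51 TG and 217 WT cells). There it had 256 CPM (196 to 328) in TG and 145 CPM (126 to 167) in WT, a ratio of 1.76 (1.30 to 2.36), and was seen in 60.8% of TG and 47.5% of WT cells. Cfb had its highest level in the same cluster, 134 CPM (91.7 to 189) in TG and 84.0 CPM (69.1 to 101.2) in WT, a ratio of 1.60 (1.04 to 2.38). That Cfb ratio rested on few cells, since 5 cells held 87.5% of its UMIs in TG and 32.4% in WT, and Cfb was seen in 17.6% of TG and 27.2% of WT cells of the cluster. In that cluster 23.6% of 5329 genes were called higher in TG, against 6 of the 8 members. Besides C3 and Cfb these were the C1q chains, together at 905 CPM in TG and 339 CPM in WT, levels that free RNA could give, and C3ar1, with a ratio of 1.71 whose interval includes 1 (0.931 to 2.99). By contrast C3 was called lower in TG in the finer low-UMI cluster led by Creb5, where 17.5% of 5775 genes were. It had 33.6 CPM (19.56 to 53.77) in TG and 87.6 CPM (61.35 to 121.3) in WT there.

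Fibroblast-like C3 was uneven between cells and between sets of barcodes. The 5 cells with the most UMIs held 56.5% of C3 in TG and 45.1% in WT. Among the barcodes of 2200 genes or more, 76 TG and 90 WT fibroblast-like barcodes had 363 CPM in TG and 1859 CPM in WT, a ratio of 0.195 (0.170 to 0.224). The 5 barcodes with the most held 83.4% of these UMIs in TG and 48.9% in WT, and without them the level was 66.0 CPM in TG and 1039 CPM in WT. Cfb behaved alike in these barcodes, with 55.7 CPM in TG and 190 CPM in WT, a ratio of 0.293 (0.1996 to 0.419). The metadata cells and the RNA-rich barcodes thus give different ratios for both genes in this class.

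Factor B was otherwise low. Cfb had 46.7 CPM in TG and 46.0 CPM in WT monocyte-like cells, a ratio of 1.01 (0.791 to 1.29). That ratio turned with the setting, to 0.425 (0.249 to 0.682) in the barcodes of 2200 genes or more, from 18 UMIs in TG, and to 1.54 with the finer clusters weighted equally. Cfb had 48.2 CPM in TG and 31.8 CPM in WT fibroblast-like cells, from 14 UMIs in TG and 8 UMIs in WT, a ratio of 1.52 whose interval includes 1 (0.594 to 4.18). In macrophage-like cells it had 13.6 CPM (10.1 to 17.9) in TG and 30.2 CPM (23.5 to 38.3) in WT, a ratio of 0.449 (0.305 to 0.657). The macrophage-like intervals do not overlap, and Cfb was seen in 3.80% of TG and 7.08% of WT cells. With the finer clusters of the class weighted equally the ratio was 0.795 and no longer called.

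The C3a receptor was highest in macrophage-like cells, where its level differed little between libraries. C3ar1 had 201.5 CPM (187 to 217) in TG and 216 CPM (197 to 236) in WT macrophage-like cells, a ratio of 0.934 (0.832 to 1.05). Monocyte-like cells had 64.7 CPM (54.4 to 76.3) in TG and 53.4 CPM (46.8 to 60.5) in WT, a ratio of 1.21 (0.977 to 1.499). Both intervals of the ratio include 1. C3ar1 was called higher in TG in the low-UMI cluster led by Mcpt1, at 62.6 CPM in TG and 25.7 CPM in WT, a ratio of 2.43 (1.31 to 4.79). The direction turned after regrouping without the 8 genes, with 77.8 CPM in TG and 125 CPM in WT in this cluster. C3ar1 was also called higher in neutrophil-like cells, from 11 UMIs in TG and 23 UMIs in WT, a ratio of 3.67 (1.61 to 7.83) at a WT level that free RNA could give. The neutrophil-like ratio was no longer called without the 5 cells with the most UMIs (1.34) or after regrouping without the 8 genes (1.14). UMIs of C3ar1 were seen in 42.1% of TG and 41.7% of WT macrophage-like cells, against 0.671% of TG and 0.539% of WT B-like cells.

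The C5a receptor was ordered alike in both libraries, highest in neutrophil-like cells, then in macrophage-like and then in monocyte-like cells, with no overlap of neighbouring intervals. C5ar1 had 705 CPM (618 to 802) in TG and 925 CPM (888 to 964) in WT neutrophil-like cells. Macrophage-like cells had 238 CPM (223 to 255) in TG and 305 CPM (283 to 329) in WT. Monocyte-like cells had 121 CPM (107 to 137) in TG and 262 CPM (248 to 278) in WT. C5ar1 was lower in TG in all 3 classes, with ratios of 0.762 (0.663 to 0.872), 0.781 (0.706 to 0.865) and 0.461 (0.402 to 0.528), and the monocyte-like one alone was called. Relative to the median gene of its class the neutrophil-like ratio was 0.492, past 1.5-fold, whereas after regrouping without the 8 genes it was 0.917, with an interval that includes 1 (0.789 to 1.06). UMIs of C5ar1 were seen in 31.1% of TG and 53.6% of WT monocyte-like cells, and in 11.7% of TG and 19.4% of WT cells after thinning to 1000 UMIs. The ratio in monocyte-like cells was 0.541 (0.465 to 0.628) after regrouping without the 8 genes and 0.464 (0.375 to 0.568) in the barcodes of 2200 genes or more. Neutrophil markers in monocyte-like cells, all 12 of them detected in each library, summed to 391 CPM in TG and 2778 CPM in WT, and their part in the C5ar1 ratio was not tested. The Arg1, Nos2 and Saa3 cluster had 247 CPM in TG and 360 CPM in WT, a ratio of 0.686 (0.515 to 0.901).

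**Figure D4:**
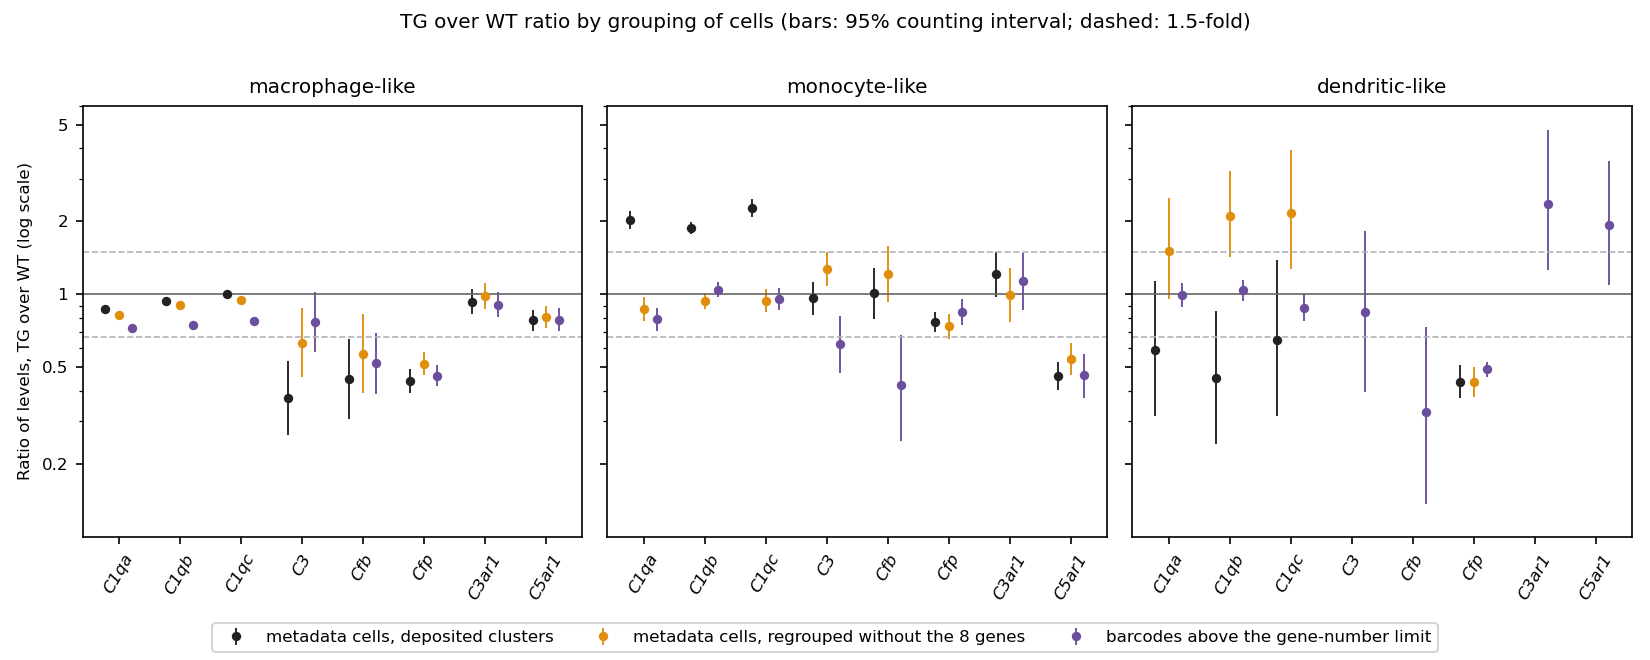
Ratio of levels, TG over WT, on a log axis for the 8 genes in macrophage-like, monocyte-like and dendritic-like cells, with 95% counting intervals, for the deposited clusters (black), the same cells regrouped without the 8 genes (orange) and the barcodes of 2200 genes or more (purple). Cfp stays below the lower dashed 1.5-fold line in macrophage-like and dendritic-like cells under all 3 groupings, whereas the C1q chains of monocyte-like cells pass the upper line with the deposited clusters alone.

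The calls were set against all genes with at least 20 UMIs in the same class. In macrophage-like cells 8.66% of 10213 genes were called higher and 8.52% lower in TG, against 0 of the 8 members higher and 3 lower (C3, Cfb and Cfp). In monocyte-like cells 14.9% of 9302 genes were called higher and 9.05% lower in TG, against 3 members higher (the C1q chains) and 1 lower (C5ar1). In dendritic-like cells 11.4% of 7349 genes were called lower in TG, against all 4 members that had enough UMIs, Cfp and the 3 C1q chains, the chains at levels that free RNA could give. In neutrophil-like cells 52.1% of 6048 genes were called higher and 10.2% lower in TG, against 4 of the 7 members compared higher (the C1q chains and C3ar1) and 1 lower (C3). In the low-UMI cluster led by Mcpt1 13.1% of 7009 genes were called higher and 14.8% lower in TG. Of the 7 members compared there, 4 were higher (the C1q chains and C3ar1) and 1 lower (C3). C1qa, C1qc and C3 were at levels that free RNA could give, whereas C1qb and C3ar1 were not. After regrouping without the 8 genes C1qb had 687 CPM in TG and 633 CPM in WT in this cluster, and C3ar1 was lower in TG. In fibroblast-like cells 13.5% of 4808 genes were called higher and 21.3% lower in TG, against 4 of 5 members higher (the C1q chains, each at a level that free RNA could give, and Cfb) and 0 lower. The median log2 ratio of the members was -0.28 in macrophage-like and 0.15 in monocyte-like cells, against -0.04 and 0.08 over all genes tested there.

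Within macrophage-like cells C5ar1 and Cfp differed more than C1q between cells with and without UMIs of 3 resident macrophage genes. Cells with a UMI of Cd163, Folr2 or Lyve1, genes of tissue-resident macrophages, numbered 275 in TG and 145 in WT, with medians of 2788 UMIs in TG and 2898 UMIs in WT, against 3180 UMIs in TG and 3209 UMIs in WT in the remaining cells. C5ar1 had 325 CPM in TG and 530.4 CPM in WT in these cells, against 213 CPM in TG and 248 CPM in WT in the remaining macrophage-like cells. Cfp had 229 CPM in TG and 457.5 CPM in WT with such a UMI, against 124 CPM in TG and 305 CPM in WT without. C1q had 9243 CPM in TG and 10686 CPM in WT with, against 9655 CPM in TG and 10059 CPM in WT without. Both C5ar1 and Cfp were thus higher in cells with such a UMI in each library, and Cfp was lower in TG in both sets of cells, with ratios of 0.501 (0.410 to 0.613) with and 0.406 (0.354 to 0.465) without. The C5ar1 ratio was 0.613 (0.514 to 0.733) with such a UMI, past 1.5-fold, and 0.858 (0.758 to 0.971) without.

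Genes with the most similar pattern were ranked by the smaller of the 2 libraries' Pearson correlations of log2(CPM + 10) over 14 finer clusters. These clusters share libraries and were drawn on expression, so the values are descriptive. The C1q sum was closest to Ms4a7 (r = 0.962 in TG and 0.955 in WT), then Adgre1, Cx3cr1 and Mrc1. C3ar1 was closest to Csf1r (0.951 in TG and 0.934 in WT), then Trem2, Ms4a7 and Adgre1, and it followed the C1q sum itself at 0.982 in TG and 0.958 in WT. C5ar1 was closest to Slc11a1 (0.947 in TG and 0.943 in WT), then Cebpb, Cxcl2 and Pla2g7. Among the genes closest to Cfp were Cd68 (0.952 in TG and 0.966 in WT), Csf2rb and Pira2. C3 was closest to Cdc42ep2 (0.966 in TG and 0.899 in WT), then Tnfaip6, Fn1 and Tgm2, and Cfb to Mmp14 (0.869 in TG and 0.907 in WT), then Slc39a1, Ctdspl and Rcan1. C3 and Cfb followed each other at 0.791 in TG and 0.789 in WT.

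Of 44 other complement genes, 40 were detected. In macrophage-like cells 16 had at least 20 UMIs, of which 1 was higher and 4 were lower in TG, beside 8.66% higher and 8.52% lower over all genes there. Itgam, the alpha chain of complement receptor 3, had 129 CPM in TG and 276 CPM in WT, a ratio of 0.469 (0.416 to 0.529). Lrp1, an endocytic receptor that also takes up complement-bound debris, had 79.7 CPM in TG and 134 CPM in WT (0.597, 0.506 to 0.703). C6, a terminal pathway component, had 13.02 CPM in TG and 5.77 CPM in WT (2.26, 1.20 to 4.54), from 48 UMIs in TG and 13 UMIs in WT. C4b, whose reads can be shared with its near-copy C4a, had 22.8 CPM in TG and 37.3 CPM in WT, at a level that free RNA could give.

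In monocyte-like cells 11 of the 44 were compared, of which 2 were higher and 3 lower in TG, beside 14.9% higher and 9.05% lower over all genes there. Itgam had 215 CPM in TG and 335 CPM in WT, a ratio of 0.641 (0.577 to 0.712), and Lrp1 165 CPM in TG and 248 CPM in WT (0.665, 0.589 to 0.750). Itgax, the alpha chain of complement receptor 4, had 73.4 CPM in TG and 42.0 CPM in WT (1.75, 1.41 to 2.17), and C1qbp, which binds the globular heads of C1q and also sits in mitochondria, 69.3 CPM in TG and 39.6 CPM in WT (1.75, 1.40 to 2.19). Complement receptor 3 and 4 alpha chains thus differed in opposite directions in this class, where dendritic markers summed to 835 CPM in TG and 327 CPM in WT, with Siglech at 0 in WT. The part of these markers was not tested.

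Fibroblast-like cells carried the classical pathway proteases and their inhibitor. Serping1, the C1 inhibitor, had 1085 CPM (969 to 1212) in TG and 584 CPM (493 to 686) in WT, a ratio of 1.86 (1.52 to 2.28). C1s1, a serine protease of the C1 complex with the near-copy C1s2, had 513 CPM in TG and 397 CPM in WT, a ratio of 1.29 with an interval that just includes 1 (0.997 to 1.68). Clu, clusterin, had 68.9 CPM in TG and 206.5 CPM in WT (0.334, 0.189 to 0.569), and Cd93, an endothelial and myeloid surface protein, 72.3 CPM in TG and 163 CPM in WT (0.444, 0.249 to 0.769). Endothelial markers in this class summed to 792 CPM in TG and 1660 CPM in WT, all 4 of them detected in each library, and their part in the Clu and Cd93 ratios was not tested. The remaining genes of high level were Calr, the C1q-binding chaperone calreticulin, with 448 CPM in TG and 461 CPM in WT fibroblast-like cells, and Cr2, complement receptor 2, which reached 300.1 CPM in TG and 465 CPM in WT in the unnamed low-UMI cluster led by Hbb-bs. Among the 13 genes compared in fibroblast-like cells 2 were higher and 2 lower in TG, beside 13.5% higher and 21.3% lower over all genes there, so the count is near the background.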

How the data were processed

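The deposited tables hold UMI counts per gene and cell barcode for 2 libraries of 10x Genomics 5′ chemistry, with 58884332 UMIs over 10143 barcodes in TG and 69346746 UMIs over 9855 barcodes in WT. Cell Ranger 5.0.0 and Seurat 4.0 were used with mm10, per the submitters' processing notes, which give them no roles. The deposited metadata give the authors' UMI counts, gene numbers, percent of UMIs from mitochondrial and immunoglobulin genes, and cluster numbers at resolutions 0.4 and 0.5 for the cells kept, all of which lie under 2200 genes and 5 percent of each kind.

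UMIs were summed per cluster and library and given as CPM with exact intervals (Python 3.11.15, numpy 2.4.6, scipy 1.17.1, pandas 2.3.3). The ratio step was tested on simulated data. Classes were named from fixed marker lists. The members and all lists and tests were chosen with earlier results of these data known. Named besides the members were other complement genes past 1.5-fold with at least 50 UMIs in macrophage-like, monocyte-like or fibroblast-like cells, the 5 of highest level in any class, and 4 genes of like pattern per member. Some genes that these rules name are not reported here. The members C1qa and Cfb have no promoter sequence here. Regrouping took each barcode to its most likely class (multinomial, pseudocount 0.1), right for 83.6% of 6691 held-out cells. Doublets were scored with Scrublet in scanpy 1.11.5, whose own limit called 2 TG and 0 WT barcodes and so did not work. As an alternative the 8% of barcodes with the highest scores were left out. Other alternatives were scalings, cell filters, finer clusters, UMI minimums and thinning. Barcodes were compared as deposited, without removal of free RNA.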

Additional observations from a re-analysis of the deposited data

Results flagged for a closer look

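As the metadata group the cells, the C1qb ratio lay on opposite sides of 1 in different cell classes. Its ratio of TG over WT was 1.89 in monocyte-like cells and 0.942 in macrophage-like cells, and neither interval includes 1. The difference between the classes was not tested, since each genotype is 1 library. The monocyte-like ratio was 0.941 after cells were regrouped without the 8 genes, and the macrophage-like ratio, which was not called, was 1.09 with the finer clusters weighted equally.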

How the results depend on the processing

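The ratios are TG over WT, and settings that regroup cells without the 8 genes or use the barcodes of 2200 genes or more alone were chosen after seeing the data. For the C1q sum in macrophage-like cells, 0.939 became 0.985 with median-of-ratios scaling, 0.960 with the mean of per-cell CPM, 1.11 with finer clusters weighted equally, 0.808 with barcodes of 2200 genes or more added, 0.748 in these alone and 0.894 after regrouping. For the C1q sum in monocyte-like cells, 2.01 became 1.89, 1.88 and 2.23 with median-of-ratios scaling, per-cell CPM and removal of high doublet scores. It became 1.21 with barcodes of 2200 genes or more added, 0.955 in these alone and 0.925 after regrouping. Under these last 3 settings 0 members were called higher in TG monocyte-like cells, against 3, and in the barcodes of 2200 genes or more alone 3 were called lower, against 1. The cause was not tested.

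Single genes that turned were mostly at levels free RNA could give. In monocyte-like cells C1qa turned to 0.875 after regrouping and 0.791 in barcodes of 2200 genes or more, C1qb to 0.941 after regrouping, and C1qc to 0.942 and 0.958. In dendritic-like cells C1qa turned to 1.31 in the finer cluster and 1.51 after regrouping, C1qb to 1.09, 2.11 and, in barcodes of 2200 genes or more, 1.04, C1qc to 1.84 and 2.18, and the C1q sum to 1.32 and 1.93. In fibroblast-like cells C1qc turned to 0.698 without high doublet scores and 0.668 without the 5 richest cells, and Cfb to 0.870 without these, 0.341 with barcodes of 2200 genes or more added and 0.293 in these alone. Cfp in macrophage-like cells ran from 0.419 to 0.518 and in dendritic-like cells from 0.410 to 0.505 over 11 settings, and C5ar1 in monocyte-like cells from 0.434 to 0.610, each on the called side throughout. C3 in macrophage-like cells ran from 0.290 to 0.772 and Cfb there from 0.432 to 0.795.

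No paired analysis was possible because each genotype is 1 library. Depth limits C3 in TG neutrophil-like cells (16 UMIs) and Cfb in fibroblast-like cells.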
